A study of Mus musculus with 20 samples.

Results

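The passage from the middle of the dark phase to lights on was examined in small-intestinal IgA+ plasma cells, by setting samples taken at zeitgeber time (ZT) 0, the onset of light, against samples taken at ZT18, 6 hours earlier. The members are the 5 ZT0 and 5 ZT18 samples, 10 of the 20 samples in the series, chosen by their labelled time alone. All groups used here came from wild-type C57BL/6 mice kept in a light:dark cycle with free access to food, with 1 mouse per sample, and no allele or drug separated them. The other 10 samples, 5 at ZT6 and 5 at ZT12, are used only as the remaining points of the day. The age and sex of the mice were not given for single samples. The epithelium was stripped, the remaining tissue was digested with enzymes, and live cells with surface CD138 and IgA and without T cell, NK cell or naive B cell markers were sorted, and poly(A)-selected RNA was sequenced. The labels do not say whether the times were collected on 1 day, so the day of collection and the time of day cannot be told apart.

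IgA plasma cells are end-stage B cells of the gut lamina propria that secrete dimeric IgA, joined by the J chain, for transport into the lumen. Mice are active and feed in the dark, so that ZT18 falls within feeding and ZT0 at the start of rest. The molecular clock runs in most cells: BMAL1 and CLOCK bind E-box elements in the genes of their own repressors, the PER, CRY and REV-ERB proteins, and a second loop works through ROR elements. Glucocorticoids, body temperature and nutrients also carry time of day to peripheral cells. Immediate early genes such as Fos, and the inhibitors and targets of NF-kappaB, are switched on within a short time by external signals and give short-lived transcripts.

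Depth was 40.1 to 51.0 M counts at ZT0 and 36.6 to 45.8 M at ZT18. Antibody gene segments took 52.6 to 58.9% of the counts at ZT0 and 57.5 to 58.9% at ZT18, a difference of -2.1 percentage points (exact permutation test, two-sided, p = 0.0476), which was -1.18 points without ZT0 replicate 1 (p = 0.0873, exact) and missed p = 0.05 in 7 of the 10 cases with 1 sample left out. That sample had the lowest antibody share and the highest scaling factor, 1.17. Levels are counts per M counts after scaling by the trimmed mean of M values (CPM). The label of plasma cell held: Xbp1, Sdc1 (which encodes CD138), Jchain and Igha were abundant in all 10 samples, while Cd3e averaged 0.237 CPM at ZT0 and 0.195 at ZT18, and the granulocyte gene S100a8 was at 0 in all 10. Marker sums of other cells were low but not equal. The 12 enterocyte markers summed to 43.4 to 49.8 CPM at ZT0 and 54.8 to 64.5 at ZT18, nearly all of it Epcam, which was called lower at ZT0. The 11 markers of macrophages and dendritic cells summed to 88.9 to 121 CPM at ZT0 and 84.1 to 96.0 at ZT18. The 11 markers of T and innate lymphoid cells summed to 27.5 to 32.5 and 21.5 to 25.3 CPM, of which Cd4, called higher at ZT0, alone gave a mean of 28.6 at ZT0 and 21.7 at ZT18. The 10 stromal and endothelial markers summed to 29.2 to 37.6 and 29.6 to 37.4 CPM, mostly Pecam1, although the fibroblast collagen gene Col3a1 was called higher, at 2.14 against 0.552 CPM. In such bulk samples, fewer cells of a type and less RNA per cell cannot be told apart.

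Of 13967 genes tested, 1057 (7.57%) differed between ZT0 and ZT18 at an adjusted p under 0.01, and 472 of them (3.38% of those tested) were higher and 585 (4.19%) lower at ZT0. The differences were mostly small. The median fold of the called genes was 1.28, 191 reached 1.5-fold and 44 reached 2-fold, of which 11 averaged at least 5 CPM. The 5 ZT0 values lay wholly above or below the 5 ZT18 values in 1407 genes (10.1%), 599 above and 808 below. Of the called genes, 871 showed no overlap. The split between directions depended on the scaling: with library totals in place of trimmed means 521 genes were higher and 165 lower, and the median log2 fold change of all genes moved from 0.01 to 0.09. Without ZT0 replicate 1 the count was 1003, and over all samples left out in turn from the ZT0 and ZT18 groups it was 758 to 1003. Log2 fold changes below are ZT0 minus ZT18 with their standard error, from 5 samples per time, and adjusted p-values are from edgeR over all genes tested. A gene is called higher or lower only at an adjusted p under 0.01. Counts of called list members below stand beside 3.38% of all genes called higher and 4.19% called lower.

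Among called genes with at least 5 CPM, no overlap and outside the antibody segments, Snai1 and Fos had the highest fold changes, followed by Serpina3f, Jun and Junb. Some genes at lower levels changed further, such as Col3a1 (1.96). Fos, the AP-1 subunit that is the classic marker of recent stimulation, lies on chromosome 12 at 85473890 to 85477273 (GRCm38, plus strand). Its levels were 380, 823, 1030, 738 and 508 CPM at ZT0 and 165, 263, 243, 223 and 183 CPM at ZT18. Every ZT0 sample was above every ZT18 sample, although ZT0 replicate 1 stood only modestly above the highest ZT18 value. The fold change was 1.69 ± 0.29 on the log2 scale (adjusted p = 0.00078). Jun, the partner of FOS in AP-1, had 680, 1230, 1190, 901 and 563 CPM at ZT0 against 424, 513, 355, 406 and 373 at ZT18 (1.14 ± 0.27, adjusted p = 0.0087). Junb, another AP-1 subunit, had 218, 415, 387, 341 and 227 CPM at ZT0 and 161, 157, 162, 155 and 133 at ZT18 (1.05 ± 0.17). For all 3 genes ZT0 replicates 1 and 5 gave the lowest values of their group, and the spread at ZT0 was wider than at ZT18. Snai1, which encodes the transcriptional repressor SNAIL, rose from 3.13, 4.84, 3.86, 4.58 and 4.19 CPM at ZT18 to 9.49, 17.2, 13.6, 17.5 and 9.39 CPM at ZT0 (1.71 ± 0.25, adjusted p = 0.00019). The lowest ZT0 value was thus above the highest ZT18 value. Dusp6, a phosphatase gene that is induced by ERK signalling and shuts ERK off, rose from 5.71 to 6.87 CPM across ZT18 to 8.09 to 15.4 CPM across ZT0 (0.89 ± 0.14).

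**Figure D1:**
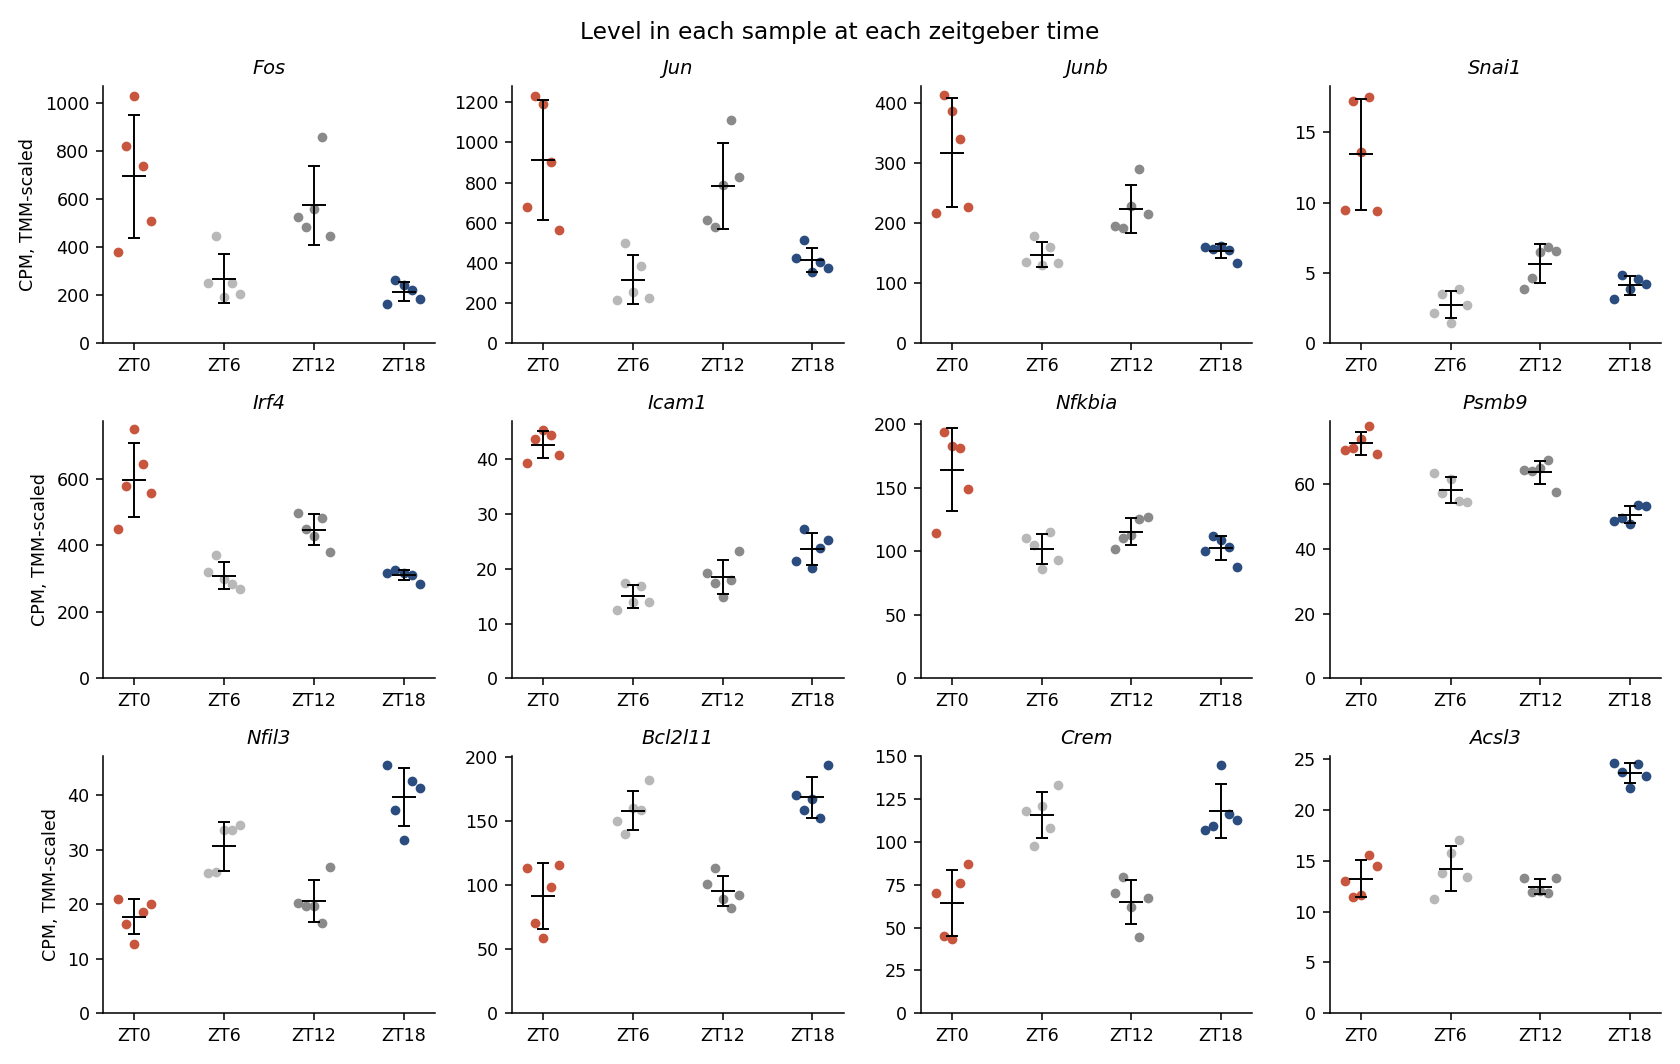
Level of 12 genes in every sample (points, CPM scaled by trimmed means, linear axis from 0) at ZT0, ZT6, ZT12 and ZT18, with the mean and SD of the 5 samples of each time in black. Fos, Jun, Junb, Snai1, Irf4, Icam1, Nfkbia and Psmb9 were higher at ZT0 than at ZT18 with no overlap, and Nfil3, Bcl2l11, Crem and Acsl3 were lower with no overlap; Fos at ZT0 ran from 380 to 1030 CPM.

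Within the list of AP-1, EGR and other immediate early genes, 8 of 28 tested genes rose, beside 3.38% of all genes, and none fell. The list median was 0.47 on the log2 scale (DESeq2 called 12 higher and 1 lower). The remaining called members were Klf2 (1.13 ± 0.24), Klf4 (0.86 ± 0.20) and Klf6 (0.57 ± 0.11), which are Kruppel-like zinc finger factors, Maff (0.75 ± 0.12), which encodes a small MAF protein, and Ier2 (0.63 ± 0.14). Klf2 keeps lymphocytes quiescent and guides their trafficking. Its ZT0 values of 187, 332, 317, 265 and 141 CPM overlapped with the ZT18 values of 74.4, 145, 124, 125 and 98.3 CPM. The list was not uniform: its log2 fold changes ran from -1.34 to 1.69, and 8 of the 28 were negative. Several of these calls were close to the threshold. Jun lost its call when any 1 ZT18 sample or ZT0 replicate 2, 3 or 4 was left out, Klf2, Klf4 and Ier2 each lost it without any of ZT0 replicates 2, 3 and 4 and without most single ZT18 samples (highest adjusted p = 0.027), and Klf2, Klf4, Klf6, Ier2 and Jun were not called with the 10 samples fitted alone. Jun also lost its call with library totals (adjusted p = 0.0115). With no filter on low counts Jun, Klf4 and Ier2 were not called, nor were Jun and Klf4 with a filter of 10 counts over all samples. Fos, Junb, Snai1, Maff and Dusp6 kept theirs in all of these fits. The cells were stripped, digested and sorted before their RNA was taken. The part of that handling in the levels of these genes and of the NF-kappaB genes below was not tested.

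NF-kappaB waits in the cytoplasm bound to inhibitors such as IkBa, and when it is released it induces the same inhibitors along with adhesion and inflammatory genes. The promoters of 3 of the genes of this group that rose are shown because each holds 2 matches to the NF-kappaB-like pattern GGNNTTTCC (either strand), in capitals, within 250 bases upstream of the start. Sequences are from RefSeq on GRCm38.p6, read 5′ to 3′ along the gene, for Icam1 at chr9:21015775-21015874 (plus strand), Nfkbia at chr12:55492658-55492837 (minus strand) and Tnfaip3 at chr10:19015411-19015460 (minus strand).
Icam1: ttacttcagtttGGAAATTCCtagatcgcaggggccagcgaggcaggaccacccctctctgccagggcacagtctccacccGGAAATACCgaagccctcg
Nfkbia: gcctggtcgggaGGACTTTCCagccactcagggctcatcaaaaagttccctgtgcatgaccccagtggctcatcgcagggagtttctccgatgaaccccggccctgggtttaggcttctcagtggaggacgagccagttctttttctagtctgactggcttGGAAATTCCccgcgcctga
Tnfaip3: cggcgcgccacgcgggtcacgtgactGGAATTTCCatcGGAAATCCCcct
The pattern was found in 5.82% of all 32851 RefSeq promoter windows of 300 bases. In the first window listed of each gene, it was found in 5.99% of 9757 tested genes. Of the 17 members of the NF-kappaB list that have a window, 7 held it in any of their windows. That count allows several windows per gene, so it is not directly comparable with these shares. Bcl3, Cxcl10, Nfkb2 and Rel of this list hold the pattern and were not called. Of the 4 called members with a window, 3 hold it. A match describes the letters and is not evidence of binding, and no link between the pattern and the rise was tested. The Tnfaip3 stretch also holds an E-box match, in lower case, that does not overlap with those shown.

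Of the 23 tested genes of NF-kappaB subunits, inhibitors and targets, 5 rose, beside 3.38% of all genes, and none fell. The list median was 0.21 beside 0.01 for all genes (DESeq2 called 6 higher and 1 lower). Icam1, the adhesion molecule that LFA-1 binds, had 39.3, 43.7, 45.4, 44.4 and 40.9 CPM at ZT0 and 21.4, 27.3, 20.2, 23.9 and 25.3 CPM at ZT18. The groups were far apart and tight, and the log2 fold change was 0.85 ± 0.11 (adjusted p = 1.8e-05). Its ZT0 mean was also above the means of 14.9 CPM at ZT6 and 18.6 at ZT12. Nfkbia, which encodes IkBa, had 114, 194, 183, 181 and 149 CPM at ZT0 against 100, 112, 109, 103 and 87.5 at ZT18 (0.68 ± 0.13), so that ZT0 replicate 1 stood just above the highest ZT18 sample. Zc3h12a, whose product Regnase-1 degrades inflammatory transcripts, rose from 23.5 to 33.4 CPM at ZT18 to 46.4 to 56.7 CPM at ZT0 (0.83 ± 0.11). Tnfaip3, which encodes the NF-kappaB brake A20, rose from 65.1 to 90.3 CPM to 102 to 138 CPM (0.63 ± 0.13). Nfkbiz, an atypical nuclear IkB, was called at 0.42 ± 0.11 but lost the call with library totals and in 8 of 10 fits that left out 1 sample (all but those without ZT18 replicate 3 or 4, highest adjusted p = 0.0332), and Nfkbia lost its call with the 10 samples alone. Serpina3f and Serpina3g, neighbouring genes of serine protease inhibitors, rose as well, from 10.9 to 25.6 CPM at ZT18 to 26.8 to 67.7 CPM at ZT0 for Serpina3f (1.39 ± 0.25) and from 24.3 to 35.4 to 42.2 to 73.1 CPM for Serpina3g (1.00 ± 0.17). They are close paralogs, so that reads may have been split between them, and both lost their calls with the 10 samples alone. The marker sum of macrophages and dendritic cells, given above, was also higher in part of the ZT0 samples, and its part in these results was not tested.

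Irf4 stood out among the genes of plasma cell identity. IRF4 is the transcription factor on which plasma cell formation and survival depend. Its gene (chromosome 13, 30749226 to 30766976, GRCm38, plus strand) had 449, 579, 750, 646 and 558 CPM at ZT0 and 317, 325, 316, 310 and 283 CPM at ZT18. The lowest ZT0 sample was above the highest ZT18 sample, and the log2 fold change was 0.94 ± 0.12 (adjusted p = 5.0e-05). Other central genes of the programme had smaller estimates. Xbp1, the driver of the secretory expansion, had means of 2029 and 2005 CPM (0.02 ± 0.03, adjusted p = 0.77), and Sdc1 had 791 and 760 CPM (0.06 ± 0.05, adjusted p = 0.48). Prdm1, which encodes BLIMP-1, was at -0.19 ± 0.05 and missed the threshold (adjusted p = 0.012). In the list of 21 identity genes 3 rose and 1 fell (5 and 2 with DESeq2, 5 and 0 with library totals), a called share of 19% beside 7.57% of all genes. Besides Irf4, Sec11c, a subunit of signal peptidase (0.23 ± 0.04), and Creb3l2, a secretory pathway factor (0.24 ± 0.05), rose, and Slamf7, a surface receptor, fell by 0.17 ± 0.05. Slamf7 lost its call with library totals and on leaving out any 1 sample except ZT18 replicate 3 (highest adjusted p = 0.0315). Among the antibody genes, 3 of 263 tested segments were called and none of the 11 tested constant region and J chain genes in the 20-sample edgeR fit or by DESeq2 (1 higher and 1 lower at an unadjusted p under 0.05, and 1 called higher by edgeR with the 10 samples alone). Igha had 210000 to 312000 CPM at ZT0 and 290000 to 317000 CPM at ZT18 (-0.25 ± 0.09, adjusted p = 0.087), Igkc had -0.18 ± 0.10 (adjusted p = 0.28), and Jchain had -0.06 ± 0.06 (adjusted p = 0.61).

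Of 13 tested genes of MHC class I presentation, 8 were higher at ZT0, beside 3.38% of all genes, and none lower, with a median of 0.20. The changes were small but well separated. Psmb9, an interferon-inducible catalytic subunit of the immunoproteasome, had 70.6, 71.1, 73.9, 78.0 and 69.2 CPM at ZT0 and 48.5, 49.6, 47.8, 53.6 and 53.2 CPM at ZT18 (0.52 ± 0.05, adjusted p = 1.1e-07). The remaining immunoproteasome subunits Psmb8 (0.25 ± 0.05) and Psmb10 (0.28 ± 0.05) also rose. Tap1, which carries peptides into the endoplasmic reticulum, rose from 85.9 to 90.8 CPM to 109 to 119 CPM (0.37 ± 0.05). Nlrc5, the transactivator of class I genes, rose by 0.44 ± 0.09 and the heavy chain gene H2-K1 by 0.23 ± 0.04, with the caution that class I heavy chains are near-identical copies. The list of proteasome subunits, which does not hold the immunoproteasome genes, had 4 of 31 members lower, beside 4.19% of all genes, and none higher, with a median of -0.07. Psma1, a structural subunit of the 20S core, was among the 4 (-0.29 ± 0.06). With library totals none of the 31 was called and the median was 0.01, and with the 10 samples alone 1 was called. In the MHC class II list 2 of 10 genes were called, both higher, beside 3.38% of all genes: H2-Ab1 (0.29 ± 0.05) with 161 to 168 CPM at ZT0 and 123 to 146 at ZT18, and H2-Ob (0.56 ± 0.14), which overlapped and lost its call without ZT0 replicate 2, 3 or 4 or ZT18 replicate 1, 3 or 5 (highest adjusted p = 0.0232). All 10 had positive estimates. Macrophages and dendritic cells also express class II genes, and their marker sum moved the same way, with C1qa called higher at ZT0 (19.5 against 14.8 CPM) and Cd14 called lower (0.99 against 2.09 CPM). The part of those cells in the class II values was not tested.

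**Figure D2:**
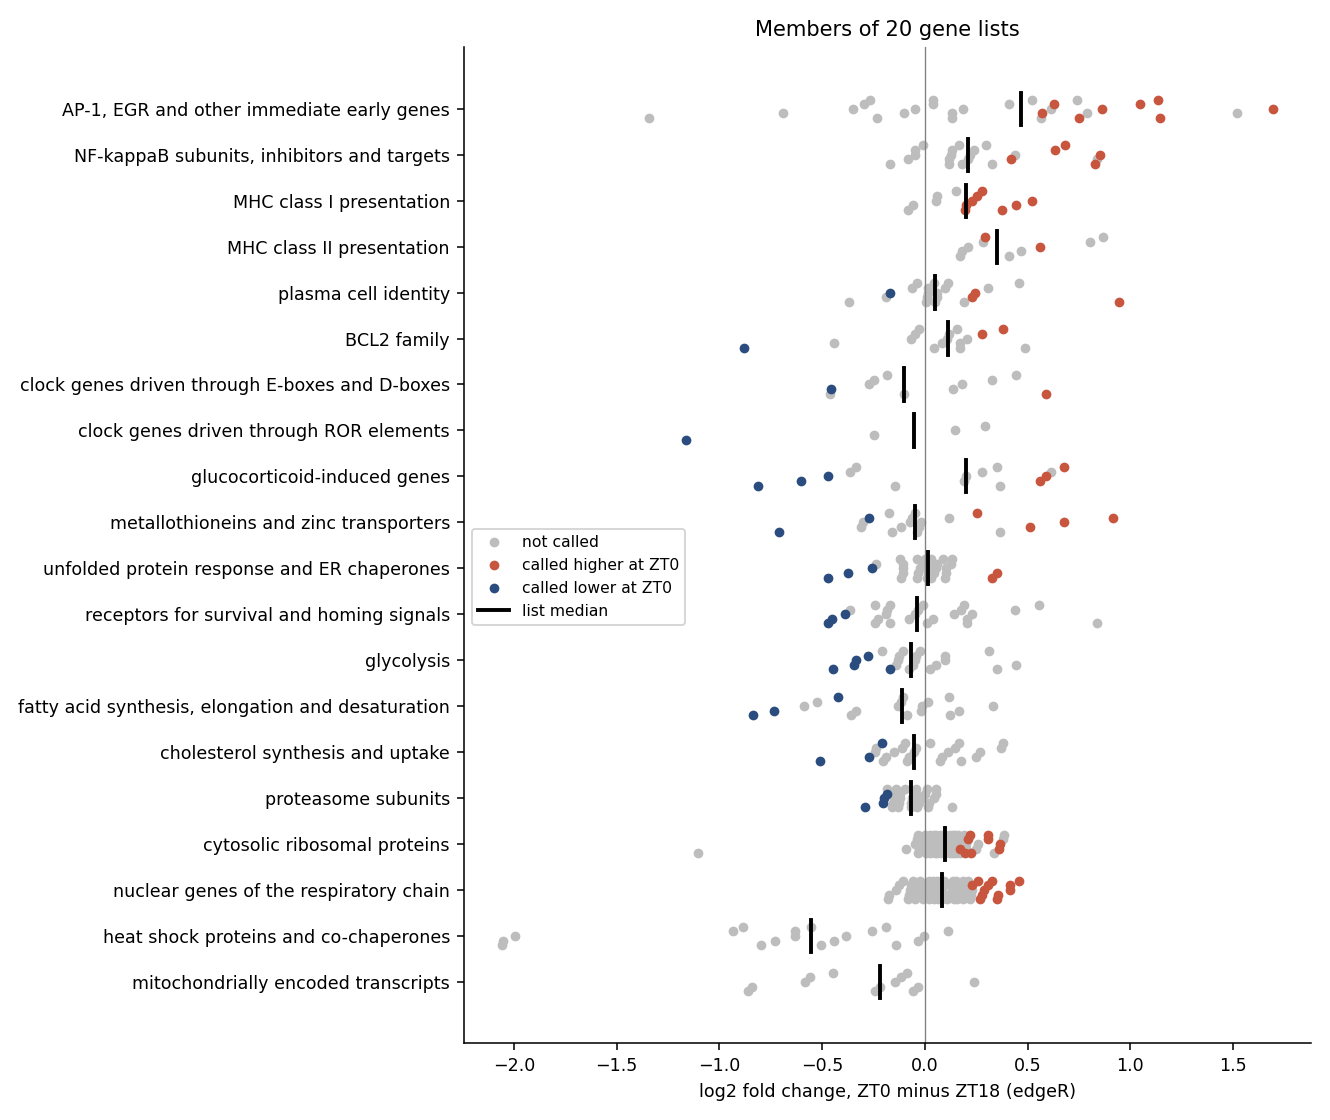
Log2 fold change, ZT0 minus ZT18, of every tested member of 20 gene lists, with called genes in red (higher at ZT0) or blue (lower), the others in grey, and the list median as a black bar. Immediate early genes had the highest median, 0.47, and heat shock genes the lowest, -0.55 with no gene called.

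Among called genes with at least 5 CPM, no overlap and outside the antibody segments, Nfil3 had the lowest fold change. NFIL3 is a repressor that competes with the PAR bZIP activators DBP and TEF for D-boxes, and it is an output of the ROR loop of the clock. Its gene (chromosome 13, 52967209 to 52981073, GRCm38, minus strand) had 20.9, 16.4, 12.8, 18.6 and 20.1 CPM at ZT0 and 45.6, 37.4, 31.9, 42.6 and 41.3 CPM at ZT18. The highest ZT0 value was well below the lowest ZT18 value, and the log2 fold change was -1.16 ± 0.15 (adjusted p = 7.2e-05). The transcript level was therefore 2.24-fold higher at ZT18, and the ZT6 mean of 30.7 CPM was above the ZT12 mean of 20.6.

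The period genes went in opposite directions. Per1, which is also a direct target of the glucocorticoid receptor and of CREB, had 181, 213, 202, 206 and 180 CPM at ZT0 and 129, 137, 142, 131 and 115 CPM at ZT18 (0.59 ± 0.08, adjusted p = 1.1e-05). Per3 had 11.0, 9.99, 11.5, 11.8 and 9.57 CPM at ZT0 and 14.5, 15.3, 17.4, 14.2 and 12.5 CPM at ZT18 (-0.46 ± 0.09, adjusted p = 0.00034). Neither gene showed any overlap, though the call of Per3 was lost with library totals (adjusted p = 0.0155). Per2 had nearly the same estimate as Per3, -0.46 ± 0.14, but did not pass (adjusted p = 0.020). The promoters of Per1, Per3 and Nfil3 hold matches to different clock elements, shown in capitals: an E-box (CACGTG) in Per1 at chr11:69098769-69098828 (plus strand), 2 D-boxes (TTANNTAA) in Per3 at chr4:151044806-151044880 (minus strand), and a ROR element (AGGTCA, here on the opposite strand) in Nfil3 at chr13:52981040-52981089 (minus strand), again from RefSeq on GRCm38.p6 and read along the gene.
Per1: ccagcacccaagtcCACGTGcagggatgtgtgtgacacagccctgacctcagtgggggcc
Per3: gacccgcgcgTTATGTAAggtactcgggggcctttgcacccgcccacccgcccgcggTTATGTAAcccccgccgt
Nfil3: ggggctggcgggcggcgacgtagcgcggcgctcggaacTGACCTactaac
Of all RefSeq windows, 7.15% hold the E-box pattern, 6.0% the D-box pattern and 16.3% the ROR pattern, on either strand. The Per1 stretch also holds a ROR match, in lower case. Clock genes that were not called hold the same patterns. The E-box was also found in Bhlhe41, Ciart, Cry1 and Tef, the D-box in Tef, and the ROR pattern in Arntl, Clock and Nr1d2. A match is not evidence of binding, and no link between element and direction was tested.

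The core clock genes did not move as a block between these times. In the E-box and D-box list 1 gene rose and 1 fell of 11 tested, and in the ROR list only Nfil3 was called of 4 tested. The called shares were 18.2% and 25%, beside 7.57% of all genes. The REV-ERB genes Nr1d1 (0.33 ± 0.19, with 0.994 to 2.22 CPM at ZT0 and 1.14 to 1.55 CPM at ZT18) and Nr1d2 (-0.19 ± 0.10) did not pass, nor did the bZIP genes Dbp (0.18 ± 0.16) and Tef (-0.25 ± 0.08, adjusted p = 0.029). Cry1 had -0.25 ± 0.19 and Cry2 had -0.27 ± 0.08 (adjusted p = 0.023), Ciart, a further repressor, had 0.44 ± 0.20, and the DEC repressor genes Bhlhe40 and Bhlhe41 had -0.10 ± 0.11 and 0.14 ± 0.07. Of the activators, Arntl, which encodes BMAL1, had 7.97 to 10.6 CPM at ZT0 and 7.12 to 8.79 CPM at ZT18 (0.14 ± 0.13, adjusted p = 0.51). Clock had 0.29 ± 0.09 (adjusted p = 0.034). Several of these transcripts were at only a few CPM, where a moderate change was hard to detect at this depth.

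**Figure D3:**
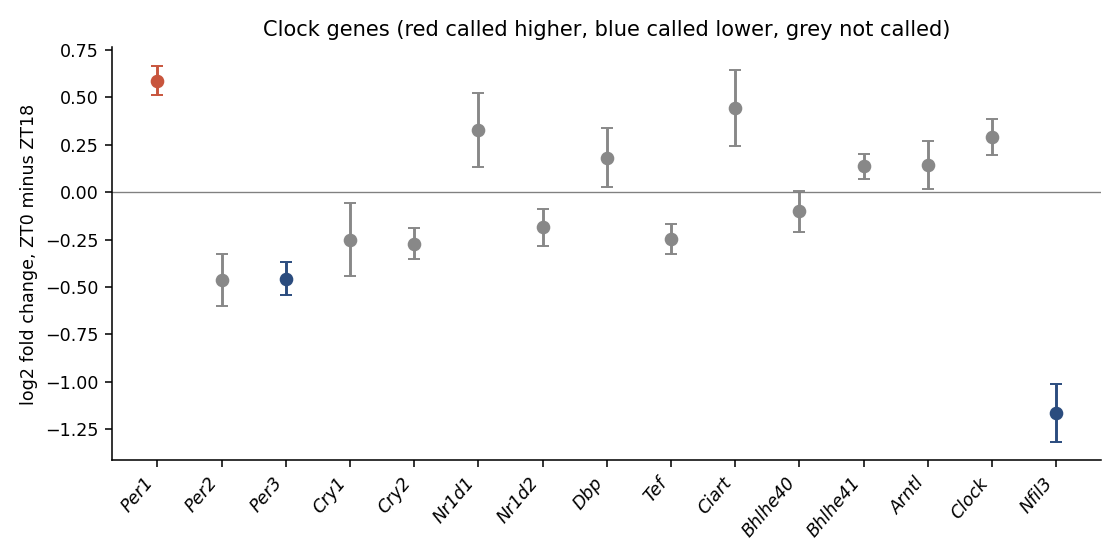
Log2 fold change, ZT0 minus ZT18, of 15 clock genes with the standard error as bars (n = 5 samples per time). Per1 (0.59) was called higher, Per3 (-0.46) and Nfil3 (-1.16) were called lower, and the 12 genes in grey were not called.

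Survival genes of the BCL2 family changed in both directions, with 2 of 16 tested genes higher and 1 lower, a called share of 18.8% beside 7.57% of all genes. Bcl2l11, which encodes the pro-apoptotic protein BIM, had 113, 70.5, 59.1, 98.7 and 116 CPM at ZT0 and 170, 159, 167, 152 and 194 CPM at ZT18 (-0.88 ± 0.16, adjusted p = 0.0012). Its call was lost with the 10 samples fitted alone. Mcl1, which encodes the anti-apoptotic protein that plasma cells require, had 571, 619, 599, 612 and 573 CPM at ZT0 and 473, 508, 492, 483 and 494 CPM at ZT18 (0.28 ± 0.04, adjusted p = 2.6e-06). Bbc3, which encodes the pro-apoptotic protein PUMA, rose too, by 0.38 ± 0.07. The survival and homing receptors had 3 of 26 genes lower, beside 4.19% of all genes, and none higher. DESeq2 called 3 higher and 3 lower, library totals gave 2 and 2, and at an unadjusted p under 0.05 the list held 7 higher and 7 lower. Cd44, which binds hyaluronan, fell from 307 to 350 CPM to 227 to 267 CPM (-0.45 ± 0.05), and Cd28, a costimulatory receptor that plasma cells keep, fell from 146 to 193 CPM to 123 to 140 CPM (-0.39 ± 0.08). Cxcr4, the receptor for CXCL12, was at -0.47 ± 0.11 and lost its call with library totals, with no filter on low counts, and on leaving out any 1 sample except ZT0 replicate 4 and ZT18 replicates 3 and 4 (highest adjusted p = 0.019).

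Further genes at this end of the ranking had varied roles. Crem, whose products modulate transcription through cAMP response elements, had 70.3, 45.2, 43.2, 75.9 and 86.8 CPM at ZT0 and 107, 109, 145, 116 and 113 CPM at ZT18 (-0.88 ± 0.19, adjusted p = 0.0046), and lost its call without ZT0 replicate 2 or 3, without ZT18 replicate 3 or 4, and with the 10 samples alone. Cdca4, a gene of a nuclear protein of the TRIP-Br family, fell from 8.21 to 12.3 CPM to 4.07 to 6.43 CPM (-0.99 ± 0.15). Cdkn1a, which encodes the cell cycle inhibitor p21, fell from 6.39 to 8.81 CPM to 2.72 to 5.80 CPM (-0.81 ± 0.14). Tubb6, a beta-tubulin gene, changed by -0.86 ± 0.11, Myo1e, an unconventional myosin gene, by -0.85 ± 0.15, Exoc8, an exocyst subunit gene, by -0.85 ± 0.14, Klhl11, a Kelch-like gene, by -0.88 ± 0.14, and Mir22hg, the host transcript of miR-22, by -0.79 ± 0.12. The processed pseudogene Gm18561 was at -1.13 ± 0.21, and its reads may belong to its parent gene. Of 36 cell cycle genes 1 was higher and 2 were lower, a called share of 8.33% beside 7.57% of all genes. Tk1, thymidine kinase, was the one that rose (0.56 ± 0.11), from 34.3 to 42.7 CPM to 46.4 to 64.6 CPM.

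In fatty acid synthesis, elongation and desaturation 3 of 18 genes fell, beside 4.19% of all genes, and none rose, with a median of -0.11. Acsl3, which activates long-chain fatty acids for lipid droplets and membranes, had 13.0, 11.4, 11.6, 15.6 and 14.5 CPM at ZT0 and 24.6, 23.7, 22.2, 24.5 and 23.3 CPM at ZT18. The groups were separated by a gap wider than the range of either, and the log2 fold change was -0.84 ± 0.09 (adjusted p = 2.0e-07). The desaturase gene Scd2 fell from 79.7 to 93.1 CPM to 59.2 to 70.9 CPM (-0.42 ± 0.07), and the elongase gene Elovl5 was at -0.73 ± 0.15 but lost its call with library totals and without ZT0 replicate 3 or 5 or ZT18 replicate 1, 2 or 5 (highest adjusted p = 0.0131). Of 25 cholesterol synthesis and uptake genes, 11 had positive and 14 negative estimates (median -0.05), and 6 were higher and 7 lower at an unadjusted p under 0.05. After adjustment 3 were lower, beside 4.19% of all genes, and none higher, while library totals called none (median 0.03): Srebf2, the master regulator of the pathway (-0.21 ± 0.05), Dhcr7, its last step (-0.27 ± 0.05), and Hsd17b7, a sterol reductase gene (-0.51 ± 0.12). With library totals all 3 missed the threshold, at adjusted p = 0.179, 0.0334 and 0.025, and Hsd17b7 also did so without replicate 4 or 5 of either time (highest adjusted p = 0.0168). In glycolysis 5 of 22 genes fell, beside 4.19% of all genes, and none rose, with a median of -0.07, while library totals called 1 lower with a median of 0.01. Slc16a1, which encodes the lactate carrier MCT1, fell from 31.4 to 37.2 CPM to 22.8 to 27.7 CPM (-0.45 ± 0.06), followed by the enzyme genes Pgk1 (-0.34 ± 0.06) and Aldoa (-0.28 ± 0.05) and the glucose transporter gene Slc2a1 (-0.33 ± 0.08). Only Slc16a1 of these 4 kept its call with library totals, and Slc2a1 also lost it without ZT0 replicate 1, 2 or 3 or ZT18 replicate 1, 4 or 5 (highest adjusted p = 0.0156).

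In the list of the unfolded protein response and endoplasmic reticulum chaperones, 2 of 32 genes rose and 3 fell, with a median of 0.01. The called share was 15.6% beside 7.57% of all genes. Eif2ak3, which encodes the stress sensor PERK, had 276, 240, 239, 272 and 312 CPM at ZT0 and 384, 348, 375, 377 and 375 CPM at ZT18 (-0.47 ± 0.07, adjusted p = 7.8e-05). The co-chaperone gene Dnajb9 (-0.37 ± 0.07) and the lectin chaperone gene Canx (-0.26 ± 0.05) also fell, the latter not with library totals (adjusted p = 0.0689). Ppp1r15a, which encodes GADD34, the subunit that reverses the phosphorylation of eIF2 made by PERK, rose from 143 to 157 CPM to 174 to 207 CPM (0.35 ± 0.05), as did the translocon subunit gene Sec61b (0.33 ± 0.05). In the separate list of amino acid response and transport, 1 of 22 genes rose and 2 fell, a called share of 13.6%. The one that rose was Ddit3, which encodes CHOP (0.45 ± 0.11). Its call was lost on leaving out any 1 sample except ZT0 replicates 1 and 2 and ZT18 replicate 3 (highest adjusted p = 0.0222). It was also lost with no filter on low counts and with a filter of 10 counts over all samples. The 2 that fell were Slc1a4 (-0.38 ± 0.07, adjusted p = 0.00022), with no overlap, and Slc38a2 (-0.20 ± 0.05, adjusted p = 0.0098), which overlapped. With library totals no gene of this list was called lower.

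Zinc handling and glucocorticoid-induced genes held pronounced changes of both signs. In the list of metallothioneins and zinc transporters 4 of 19 genes rose and 2 fell, a called share of 31.6% beside 7.57% of all genes. Slc39a7, which releases zinc from the endoplasmic reticulum and Golgi, had 14.8, 15.5, 14.1, 13.5 and 18.0 CPM at ZT0 and 7.94, 7.72, 7.61, 8.76 and 8.19 CPM at ZT18, with no overlap (0.92 ± 0.14, adjusted p = 7.4e-05). The metallothionein gene Mt1, whose product binds zinc, had 11.0, 13.5, 11.2, 9.66 and 10 CPM at ZT0 and 6.14, 8.09, 7.45, 6.01 and 6.97 CPM at ZT18 (0.68 ± 0.11). The importer genes went apart, with Slc39a4 up by 0.51 ± 0.07 and Slc39a10 at -0.71 ± 0.11. Of 15 glucocorticoid-induced genes 3 rose and 3 fell, a called share of 40% beside 7.57% of all genes. Tsc22d3, which encodes GILZ and is among the best known targets of the receptor, rose from 229 to 274 CPM to 318 to 415 CPM (0.56 ± 0.07, adjusted p = 6.8e-06), alongside Per1 and Mt1. Sgk1, another known target, was lower at ZT0 (-0.60 ± 0.12), as were Cdkn1a and Cxcr4, and Fkbp5, which feeds back on the receptor, had 10.5 to 12.6 CPM at ZT0 and 11.7 to 14.6 CPM at ZT18 (-0.15 ± 0.20, adjusted p = 0.72).

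Of 80 cytosolic ribosomal protein genes 9 rose, beside 3.38% of all genes, and none fell, and 72 had positive estimates, with a median of 0.10. Their summed level overlapped between the groups, at 13000 to 14800 CPM at ZT0 and 12000 to 13300 CPM at ZT18. Rpl35 rose by 0.36 ± 0.06, from 53.5 to 59.9 CPM to 65.3 to 77.7 CPM, and Rps19 by 0.30 ± 0.05. Of 75 nuclear genes of the respiratory chain 12 rose, beside 3.38% of all genes, and none fell, with a median of 0.08. The ATP synthase subunit genes Atp5k (0.46 ± 0.10) and Atp5e (0.36 ± 0.07) and the complex I gene Ndufa7 (0.41 ± 0.08) were among the 12. Transcript length moved with this result: among the 2707 tested genes of up to 990 bases the median was 0.05 with 79 genes higher and 31 lower, and among the 2703 genes longer than 2924 bases it was -0.01 with 114 higher and 182 lower. The median length of the ribosomal and respiratory lists was 694 and 718 bases, and the part of length in these values was not tested. Rbm3, a gene of an RNA-binding protein induced by mild cold, rose from 51.9 to 62.9 CPM to 73.7 to 79.0 CPM (0.36 ± 0.05, adjusted p = 4.5e-06).

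Heat shock genes pointed the other way without passing. None of 19 heat shock protein and co-chaperone genes was called by edgeR (6 lower at an unadjusted p under 0.05, and 2 lower by DESeq2), although 18 had negative estimates and the median was -0.55. Their summed level ran from 1410 to 2360 CPM at ZT0 and from 1440 to 5280 CPM at ZT18, so that the ZT18 samples differed among themselves more than the groups did. None of the 13 transcripts encoded by mitochondrial DNA was called in the 20-sample edgeR fit or by DESeq2 either (7 lower at an unadjusted p under 0.05, and 3 called lower by edgeR with the 10 samples alone), with a median of -0.22 and summed levels of 6170 to 7950 and 7050 to 8510 CPM.

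The step from ZT6 to ZT12 served as a comparison, since it spans the same 6 hours, ends at the opposite change of light and shares no sample with the step from ZT18 to ZT0. There, 640 genes (4.58%) were called, 327 higher and 313 lower at ZT12. Both steps called 165 genes, 15.6% of those of ZT0 minus ZT18 and 25.8% of those of ZT12 minus ZT6. Of these, 67 were higher and 78 lower at the later time in both, and 20 went in opposite directions. Several of the genes described above had levels at ZT12 near those at ZT0, and levels at ZT6 near those at ZT18. Fos averaged 696, 269, 575 and 215 CPM at ZT0, ZT6, ZT12 and ZT18, and Jun averaged 914, 316, 784 and 414 CPM. Bcl2l11 ran the opposite way, with 91.4, 158, 95.6 and 168 CPM, as did Crem with 64.3, 116, 64.7 and 118 CPM. In ZT12 minus ZT6 the log2 fold change was 1.31 for Jun, 0.77 for Maff, 0.85 for Dusp6, -0.72 for Bcl2l11, -0.84 for Crem and -0.75 for Myo1e, all called. Icam1 and Serpina3f did not pass there, at 0.31 (adjusted p = 0.076) and 0.50 (adjusted p = 0.24). Fos (1.10, adjusted p = 0.020), Junb (0.61, adjusted p = 0.033), Snai1 (1.04, adjusted p = 0.015) and Nfil3 (-0.57, adjusted p = 0.022) also missed the threshold there.

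**Figure D4:**
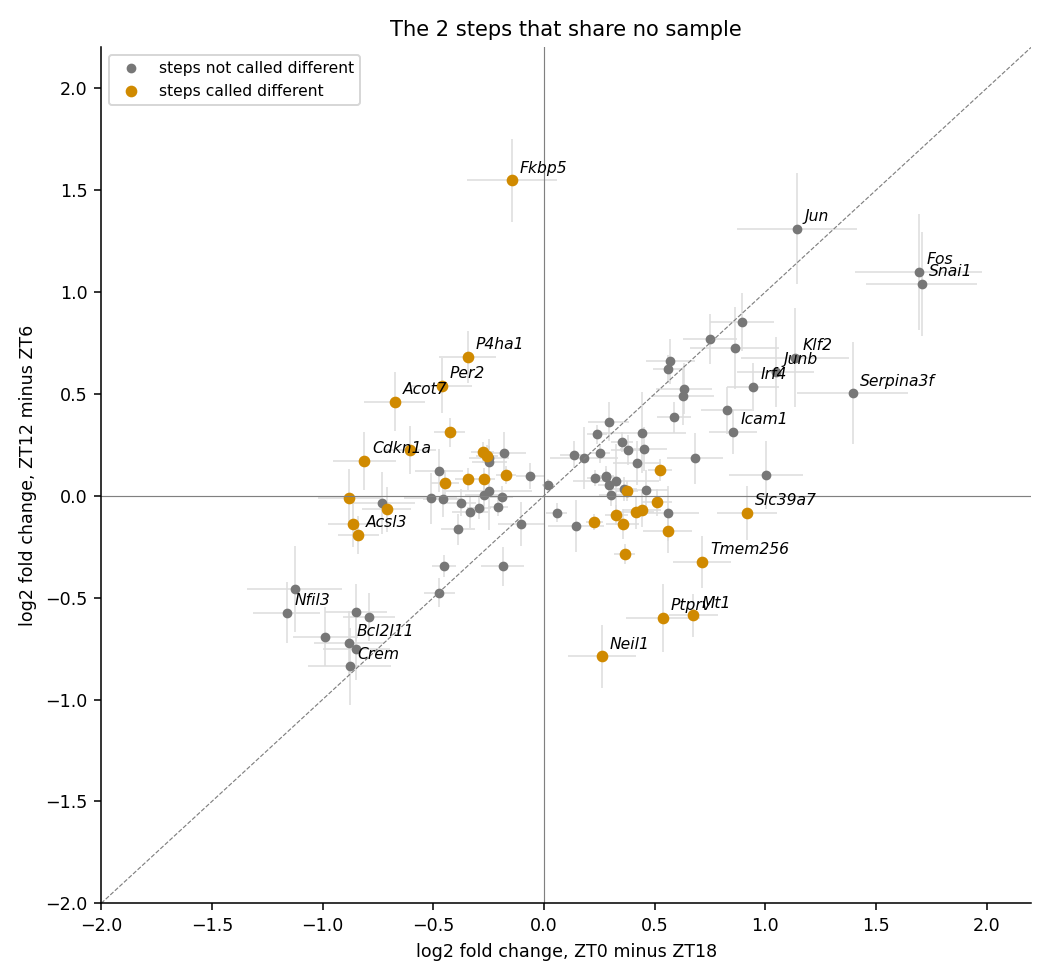
Log2 fold change of the genes described here, ZT0 minus ZT18 on the horizontal axis and ZT12 minus ZT6 on the vertical axis, with standard errors as grey bars and the line of equality dashed. Genes whose steps differed at an adjusted p under 0.01 are in orange, Fkbp5 (-0.15 and 1.55) and Mt1 (0.68 and -0.59) among them, and Jun (1.14 and 1.31) lies near the line.

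The difference between the steps was itself tested, and it passed for 355 genes (2.54%), 166 with a higher and 189 with a lower value in ZT0 minus ZT18, of which 197 were also called in ZT0 minus ZT18. Left out one by one, the samples gave counts of 234 to 443, the lowest without ZT18 replicate 2. Mt1 fell from ZT6 to ZT12 (-0.59 ± 0.11) and rose from ZT18 to ZT0 (0.68 ± 0.11), a difference of 1.26 ± 0.15 (adjusted p = 2.9e-06). Tmem256, a gene of a small membrane protein, differed by 1.04 ± 0.18, Ptprv, a receptor-type phosphatase gene, by 1.14 ± 0.24, and the DNA glycosylase gene Neil1 by 1.05 ± 0.22. Neil1 overlapped between ZT0 and ZT18 because ZT18 replicate 3, at 145 CPM, was above all ZT0 samples. Slc39a7 was at 15.2, 15.5 and 14.6 CPM at ZT0, ZT6 and ZT12 on average and at 8.04 CPM at ZT18, although ZT12 replicate 5 had 9.15 CPM, and its steps differed by 1.00 ± 0.19. Fkbp5 had the largest negative difference of the named genes, -1.69 ± 0.29, with a mean of 40.9 CPM at ZT12 beside 12.0, 14.0 and 13.3 CPM at ZT0, ZT6 and ZT18. Its ZT12 samples spread from 20.3 to 61.6 CPM. Acot7, which hydrolyses acyl-CoA, differed by -1.14 ± 0.20, P4ha1, a collagen prolyl hydroxylase subunit gene, by -1.03 ± 0.18, and Per2 by -1.002 ± 0.19, with its highest mean, 9.94 CPM, at ZT12 and its lowest, 5.43 CPM, at ZT0. Among the genes of the earlier paragraphs, Acsl3 (-0.65), Cdkn1a (-0.98), Tubb6 (-0.72), Klhl11 (-0.87), Psmb9 (0.40), Tap1 (0.35) and Rbm3 (0.65) also differed between the steps, while Fos, Jun, Junb, Snai1, Irf4, Nfil3, Bcl2l11 and Crem were not called different.

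**Figure D5:**
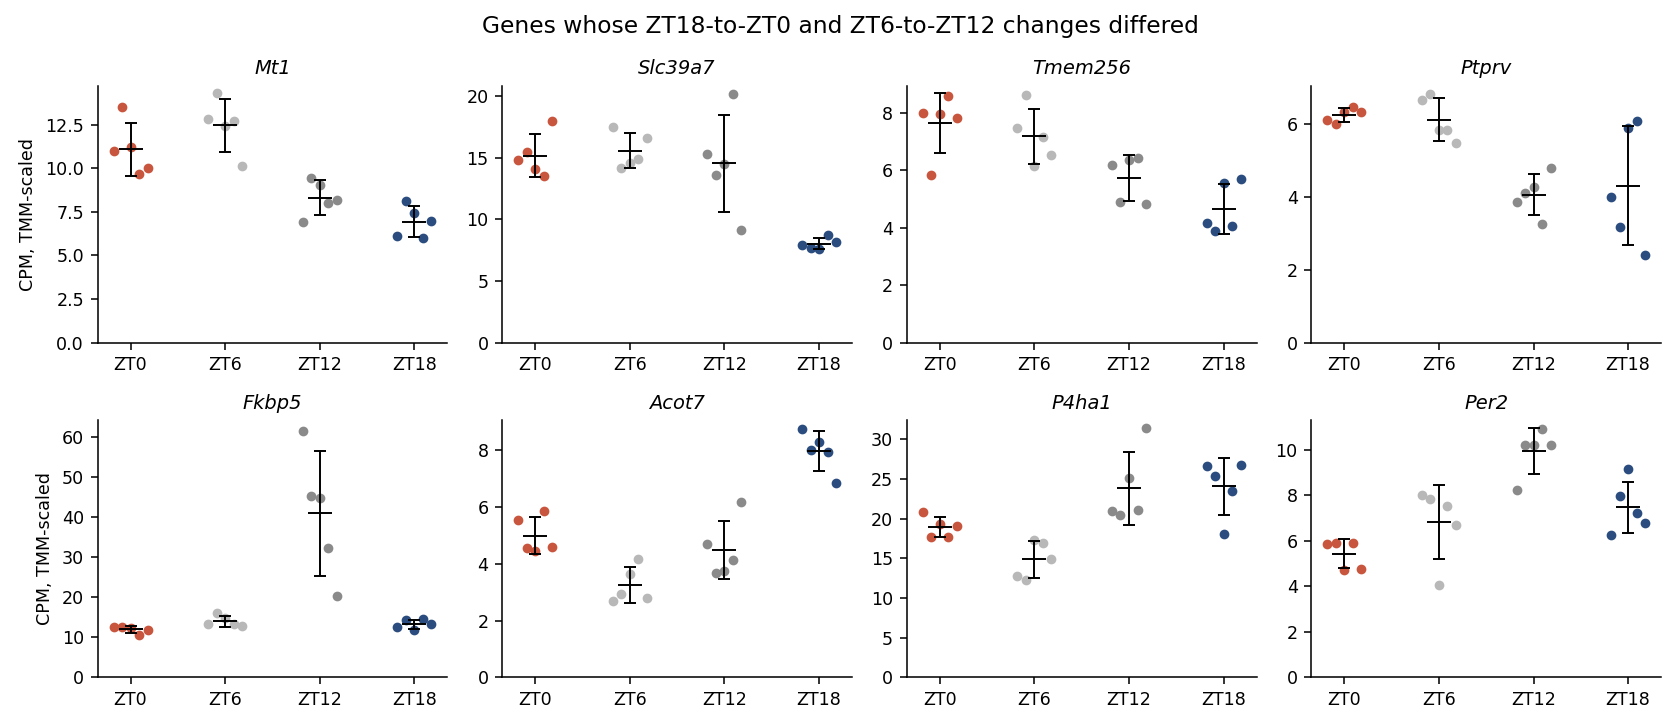
Level of 8 genes in every sample (points, CPM, linear axis from 0) with the mean and SD of the 5 samples of each time in black. Mt1, Slc39a7, Tmem256 and Ptprv had a higher log2 fold change from ZT18 to ZT0 than from ZT6 to ZT12. Fkbp5, Acot7, P4ha1 and Per2 had a lower one, Fkbp5 with 20.3 to 61.6 CPM at ZT12. Ptprv, Fkbp5, P4ha1 and Per2 were not called between ZT0 and ZT18.

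Over the whole day, ZT0 had the highest mean of the 4 times in 299 of the 472 genes called higher, ZT18 the lowest mean in 359, and both held in 194. Of the 585 genes called lower, ZT0 had the lowest mean in 430, ZT18 the highest in 492, and both held in 345. Each of these counts uses the contrast that selected the genes and is a description only.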

How the data were processed

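Poly(A)-selected RNA of sorted plasma cells was sequenced as paired reads. The deposited count table holds whole-number counts per Ensembl gene made by the authors from their alignments, with no normalization. No aligner, genome build, annotation or strand setting is stated in the sources used here. A second deposited table holds FPKM, which the authors scaled by gene length and depth, and was used only for gene symbols and to look at levels. Symbols came from it for 18803 genes and from GENCODE M21 (GRCm38) for 27727. Of 47069 genes, 21516 had 0 counts in all samples. All 20 samples entered 1 fit. Genes were filtered with filterByExpr, scaled by TMM and tested with the quasi-likelihood test of edgeR 4.0.16 (R 4.3.3, limma 3.58.1), two-sided, with Benjamini-Hochberg adjustment over 13967 genes. The call used an adjusted p under 0.01, as in the methods of the study, which used DESeq2. CPM are TMM-scaled. P-values set the difference between times against the spread between mice of the same time. The labels do not give the day of collection, so a spread between days is not accounted for. The main fit was also run on counts simulated from its own means, spreads and scaling factors with known changes added. Such counts cannot check the scaling itself or the weight of single samples. At 36 to 68 M counts the common biological coefficient of variation was 0.224.

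Genes named were the 12 highest and 12 lowest called fold changes with at least 5 CPM and no overlap, the called members of gene lists by p, clock and identity genes, and the 4 highest and 4 lowest differences between steps, some left out of the text. Members and lists were chosen with earlier results of these data known, and gene lists are given by counts and medians. Single values used exact permutation tests. RefSeq windows (250 bases before to 50 after a start) were searched on both strands, and 109 of 135 named genes had one. Alternatives were other scalings and filters, DESeq2 1.42.0, the 10 samples alone, a replicate block, another threshold and each sample left out.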

Additional observations from a re-analysis of the deposited data

Results flagged for a closer look

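Of 220 groups of 5 samples checked over named genes, marker sums and the antibody share, 8 held a sample that stood apart from the rest by Dixon's ratio, 3.64%, where chance gives about 1 in 20. At ZT0 these were replicate 3 for the erythroid marker sum (2.72 CPM, the others 0 to 0.0667) and replicate 2 for Tmem256 (5.85 CPM, the others 7.82 to 8.59). At ZT18, replicate 1 was low for Rbm3 (51.9 CPM), replicate 2 was low for Eif2ak3 (348 CPM) and high for Klf6 (312 CPM), and replicate 5 was low for Junb (133 CPM). ZT18 replicate 3 was high for Crem (145 CPM) and for Neil1 (145 CPM).

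The change from ZT18 to ZT0 differed from that from ZT6 to ZT12 for 32 of the genes described, by edgeR's test of the difference at an adjusted p under 0.01. On the log2 scale the difference was positive for Mt1 (1.26), Ptprv (1.14), Neil1 (1.05), Tmem256 (1.04), Slc39a7 (1), Tk1 (0.73), Rbm3 (0.648), Slc39a4 (0.544), Nlrc5 (0.51), Ndufa7 (0.495), Atp5e (0.494), Sec61b (0.421), Psmb9 (0.396), Sec11c (0.358), Tap1 (0.35). It was negative for Fkbp5 (-1.69), Acot7 (-1.14), P4ha1 (-1.03), Per2 (-1), Cdkn1a (-0.981), Klhl11 (-0.87), Sgk1 (-0.828), Scd2 (-0.736), Tubb6 (-0.723), Acsl3 (-0.646), Slc39a10 (-0.644), Slc16a1 (-0.509), Aldoa (-0.489), Canx (-0.454), Pgk1 (-0.426), Dhcr7 (-0.354), Slamf7 (-0.273).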

How the results depend on the processing

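The count of genes differing between ZT0 and ZT18 was 686 with library totals (521 higher, 165 lower) and 1862 at an adjusted p under 0.05 (877 higher, 985 lower). It was 1025 to 1052 with size factors of DESeq2, scaling without antibody genes, no filter or a filter of 10 counts over all samples, 1325 with the DESeq2 test and 974 with the 10 samples alone. The count of differing steps was 572 with library totals, 569 with DESeq2, 849 at an adjusted p under 0.05 and 234 to 443 with 1 sample left out. The antibody share differed by -2.74 to -1.18 percentage points with 1 sample left out, and missed 0.05 in 7 of those 10 cases. Of 106 called genes fixed by the naming rule, none reversed. Library totals kept 76 of these calls, DESeq2 106, no filter 89, the 10 samples alone 84, and fits without 1 ZT0 or ZT18 sample 81 to 95. The cause of these shifts was not tested. Samples with the same replicate number showed little shared deviation (correlations of -0.017 to 0.096, and only replicates 1 and 3 correlated best with their own number). The labels do not say what the numbers mean, so whether they pair the mice cannot be told. With a replicate block 1041 genes were called, 979 of them shared, and 337 steps differed, and 98 of the 106 named calls were kept, those of Crem, Elovl5, Nfkbiz, Slamf7 and Cxcr4 among the 8 that were not. At this depth genes under about 5 CPM gave wide errors, and among clock genes only changes well above them could be called.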
